A study of Mus musculus with 2 samples.

Results

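Short regions of H3K36me2 enrichment that lay beside protein-coding genes, but not in them, were examined in regulatory T (Treg) cells. A region was taken when it lay on chromosomes 1 to 19 or X, was shorter than 1000 bp, shared no base with any RefSeq coding gene body of the mm10 build and lay within 10 kb of the nearest one. This rule used length and position only. It took 9609 of the 94272 deposited regions, of which 5384 of 54527 were from the wild-type library and 4225 of 39745 from the knockout library. They are called flanking regions here.

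Treg cells had been taken from the spleen of C57BL/6 mice that were either wild type or carried a conditional knockout of Nsd2 in Treg cells, with 1 library for each genotype. The sources used here do not give age, sex, the number of animals pooled, the Cre driver or the antibody. With 1 library a genotype, no difference has a replicate check or a p-value, and every interval is a 95% interval for counting error only, with regions treated as independent.

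H3K36me2 is histone H3 that carries 2 methyl groups on lysine 36. It is placed by NSD1, NSD2, NSD3 and ASH1L, while SETD2 adds the trimethyl form in transcribed gene bodies, and the dimethyl mark spreads over gene bodies and the intergenic sequence beside active genes. Treg cells, a lineage of CD4 T cells set by Foxp3, keep other immune cells in check.

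The wild-type library was the deeper one, with 17158154 tags against 14789700, and 7.17% and 5.89% of tags lay in called regions. Of the 5 Treg markers Foxp3, Il2ra, Ctla4, Ikzf2 and Tnfrsf18, 4 had a region in the gene body or within 10 kb in each library, and Ctla4 had none in either. All 6 T cell markers had one in each library, and so did all 5 B cell markers. The median length covered per marker gene for the Treg markers was 12721 bp (wild type) and 14301 bp (knockout), and for the B cell markers 2141 bp and 1779 bp. It was 5643.5 bp and 6785.5 bp for T cell markers and 1671 bp and 424.5 bp for NK and CD8 T cell markers. For myeloid markers it was 1067 bp and 843 bp, for erythroid markers 0 bp and 500 bp, and for all coding genes 500 bp in each library. These lengths were not set against gene length. Of 4 NK and CD8 T cell markers, 4 had a wild-type region and 2 a knockout region, of 4 myeloid markers 3 and 2, and of 3 erythroid markers 1 and 2. In a longer list of 10 NK and CD8 T cell genes, 7 had a region in the gene body in the wild-type list and 1 in the knockout list. In the same way it was 9 and 7 of 14 B cell genes, 7 and 5 of 14 myeloid genes and 1 and 0 of 9 erythroid genes. Over all 21627 coding genes, 9604 and 8779 had a region in the gene body. A region of this mark is not a measure of transcript level, and 12694 and 11639 of all 21627 coding genes had one. Whether cells of other types had a part in the differences between the libraries was not tested.

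Few flanking regions lay over the 250 bp before a coding gene's start, and the sequences of those windows show what the mark met there. RefSeq promoter windows of GRCm38.p6, the mm10 assembly, could be read for 8905 genes whose 250 bp before the start lay outside coding bodies. A flanking region of either library covered part of 168 of them, with 82 met in wild type only, 73 in the knockout only and 13 in both. The 4 windows below are those with the most tags summed over both libraries, and capitals mark each CG dinucleotide. They belong to Plk3, which encodes a polo-like kinase, Ctss, which encodes the lysosomal protease cathepsin S, Cltc, which encodes the clathrin heavy chain, and Fzr1, which encodes an activator of the anaphase-promoting complex.
Plk3 (chr4:117133964-117134213, minus strand): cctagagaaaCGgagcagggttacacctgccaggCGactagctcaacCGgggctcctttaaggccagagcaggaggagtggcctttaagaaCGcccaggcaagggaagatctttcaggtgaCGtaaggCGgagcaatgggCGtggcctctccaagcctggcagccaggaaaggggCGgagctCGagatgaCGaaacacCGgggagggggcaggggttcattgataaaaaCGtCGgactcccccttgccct
Ctss (chr3:95526536-95526785, plus strand): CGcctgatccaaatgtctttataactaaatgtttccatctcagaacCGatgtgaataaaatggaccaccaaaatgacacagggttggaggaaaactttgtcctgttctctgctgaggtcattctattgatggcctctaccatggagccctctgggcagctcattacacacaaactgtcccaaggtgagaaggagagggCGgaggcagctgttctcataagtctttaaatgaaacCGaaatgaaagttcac
Cltc (chr11:86757568-86757817, minus strand): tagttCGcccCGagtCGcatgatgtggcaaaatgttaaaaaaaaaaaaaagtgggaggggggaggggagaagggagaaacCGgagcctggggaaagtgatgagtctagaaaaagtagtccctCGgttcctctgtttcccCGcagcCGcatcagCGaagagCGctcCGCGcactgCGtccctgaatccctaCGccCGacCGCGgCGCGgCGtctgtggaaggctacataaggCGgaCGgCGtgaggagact
Fzr1 (chr10:81378371-81378620, minus strand): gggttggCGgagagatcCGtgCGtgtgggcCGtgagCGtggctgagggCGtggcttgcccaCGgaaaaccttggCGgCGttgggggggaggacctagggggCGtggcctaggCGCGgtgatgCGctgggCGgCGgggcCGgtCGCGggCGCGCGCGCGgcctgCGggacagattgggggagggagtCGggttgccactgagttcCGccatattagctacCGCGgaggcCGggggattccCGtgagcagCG

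The 4 windows differed in CG content, with 13 CG dinucleotides before Plk3, 4 before Ctss, 22 before Cltc and 31 before Fzr1. Over all 13 windows met in both libraries the median was 23, over the 168 met in either it was 18.5, and over all 8905 it was 6. The median G and C content was 64% in the windows met in either library and 52.4% in all windows. Windows met only in wild type had a median of 16 CG dinucleotides, and those met only in the knockout had 19. Promoter windows with a short flanking region were therefore richer in CG than promoter windows at large, in each library.

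A set of 3 motifs was searched on both strands of the 250 bp windows, with no regard to overlap between them. GGGCGG, the core of the GC box, was in 66.7% of the 168 windows met by a region (59.0% to 73.7%) and in 36.1% of all windows. CCGGAA, an ETS-type core, was in 17.9% (12.4% to 24.5%) against 11.7%. TATAAA was in 11.9% (7.43% to 17.8%) against 16.9%. In the 4 printed windows GGGCGG was found before Plk3, Ctss and Fzr1 and not before Cltc. These matches describe the letters of the windows only.

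Flanking regions also covered microRNA hairpins, which were picked out here after their values were seen. Of 1005 hairpins measured, 8 were touched by a wild-type flanking region, 8 by a knockout one and 3 by both, which makes 13 in either. A base in a microRNA gene was found for 0.093% of wild-type and 0.142% of knockout flanking regions. The shares were 0.129% and 0.187% for short regions in gene bodies and 0.049% in each library for distant ones. The mature sequences of the hairpins with known roles in lymphocytes or with a shared seed are given 5′ to 3′ from RefSeq, with the seed, bases 2 to 8, in capitals.
miR-132-3p: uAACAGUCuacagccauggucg
miR-212-3p: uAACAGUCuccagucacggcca
miR-497a-5p: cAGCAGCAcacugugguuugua
miR-195a-5p: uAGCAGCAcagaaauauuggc
miR-142a-5p: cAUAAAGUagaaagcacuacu
miR-142a-3p: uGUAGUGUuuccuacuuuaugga
miR-181d-5p: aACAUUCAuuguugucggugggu

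The hairpins of miR-132 and miR-212, whose 3p arms share the seed AACAGUC, lay whole inside 1 flanking region in each library. That region was chr11:75173079-75173870 with 12.8 normalised tags in wild type and chr11:75172939-75173876 with 18.6 normalised tags in the knockout, where a normalised tag count is scaled to 10000000 tags per library. The hairpins of miR-497a and miR-195a, whose 5p arms share the seed AGCAGCA of the miR-15 family, met a wild-type region alone, at chr11:70234371-70235055 with 10.5 normalised tags. That region covered 84 bp of the miR-497a hairpin but only 14 bp of the miR-195a hairpin. The nearest knockout region was 0.126 kb from the miR-195a hairpin.

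The hairpin of miR-142a, a microRNA of blood cells, lay in a knockout flanking region at chr11:87756641-87757438 with 11.2 normalised tags. A wild-type region lay 0.117 kb away. The hairpin of miR-181d, of the family known to tune T cell receptor sensitivity, lay in a wild-type region at chr8:84178475-84179115 with 9.03 normalised tags, and the nearest knockout region was 1.02 kb away. The pair called in both libraries was thus the miR-132 and miR-212 pair, while the calls over miR-142a and miR-195a differed where the other library had a region close by.

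Most flanking regions were single peaks close to the calling threshold. Exactly 500 bp, the size of 1 peak, was the length of 3368 wild-type regions (62.6%) and 2748 knockout regions (65.0%). Normalised tag counts ran from 5.83 through a median of 8.16 to 46.9 in wild type, and from 6.42 through 8.79 to 53.4 in the knockout. At the edge of the length rule, 184 wild-type and 121 knockout regions lay in the last 100 bp under the limit, and 115 and 77 flanking regions in the first 100 bp from it. At the edge of the distance rule, 332 and 232 short regions lay in the last 1 kb inside the limit and 319 and 218 in the first 1 kb beyond.

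The knockout library held fewer flanking regions than the wild-type library in the deposited lists, 4225 against 5384, which is 78.5% (75.4% to 81.7%). Their summed length was 2.44 Mb against 3.15 Mb. The direction of this difference depended on the caller's threshold, which was 13 tags in wild type and 12 in the shallower knockout library, or 7.58 and 8.11 when scaled to 10000000 tags. When the knockout's scaled threshold was also asked of the 500 bp wild-type regions, the knockout number became 123% of the wild-type number (117% to 128%). The count of flanking regions alone therefore gives no direction of change.

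Set against distant short regions, flanking regions gave a difference that kept its direction under both thresholds. Inside coding gene bodies the knockout had 21342 short regions and wild type 28724 (74.3%), and over 10 kb away it had 8088 and wild type 12198 (66.3%). The percentage for flanking regions was 4.17 points above that inside bodies (0.80 to 7.65) and 12.2 points above that of distant regions (8.54 to 15.9). With the equal threshold it was 19.03 points above that of distant regions (12.7 to 25.5) and 8.69 points above that inside bodies (2.84 to 14.8). The excess over bodies had an interval that included 0 with at least 10 normalised tags (5.40 points, -1.97 to 13.2), within 20 kb (2.21 points, -0.66 to 5.15) and with all RefSeq genes as the bodies (0.93 points, -1.91 to 3.84). Relative to distant short regions, flanking ones were thus more numerous in the knockout library than in wild type.

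Flanking regions became denser toward genes in both libraries, and more steeply in the knockout. Density is given as regions per 1000000 positions at which a region of 500 bp could start. In the first 1 kb from a gene it was 29.7 in wild type (27.8 to 31.5) and 27.0 in the knockout (25.3 to 28.8). It was 25.8 and 21.9 between 1 and 2 kb, 21.6 and 15.8 between 2 and 5 kb, and 18.3 and 13.5 between 5 and 10 kb. The first 1 kb was 1.62 times as dense as the stretch from 5 to 10 kb in wild type (1.498 to 1.746) and 1.99 times in the knockout (1.83 to 2.17). Beyond 100 kb from a gene, the density of short regions was 5.01 and 3.22.

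**Figure D1:**
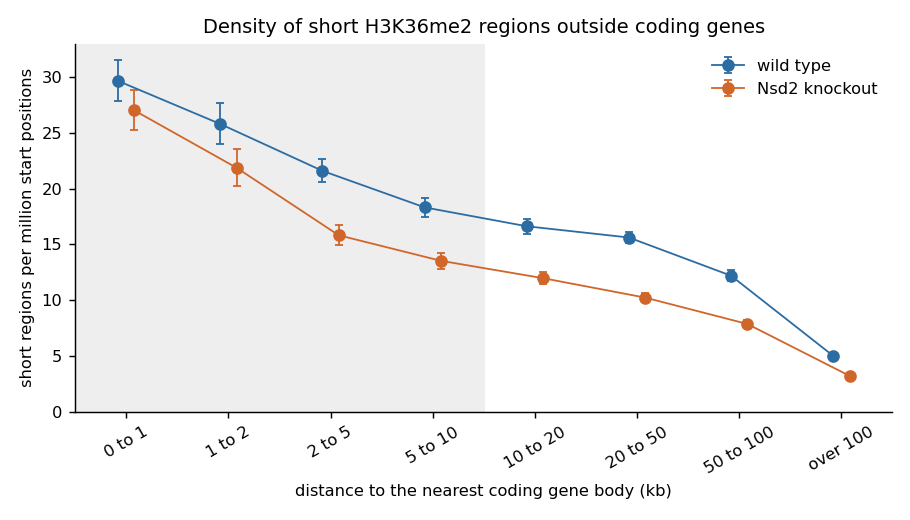
Short regions per 1000000 possible start positions (vertical axis) by distance to the nearest coding gene body in kb (horizontal axis, classes of unequal width), for the wild-type and knockout libraries, with exact Poisson 95% intervals and the flanking classes shaded. Both libraries are highest in the first 1 kb, at 29.7 and 27.0, and lowest beyond 100 kb, at 5.01 and 3.22.

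In the deposited lists the numbers of the 2 libraries were closest near genes. Within 1 kb of a gene the knockout had 918 regions and wild type 1008, which is 91.1% (83.2% to 99.7%). The percentage was 84.8% between 1 and 2 kb, 73.3% between 2 and 5 kb and 73.8% between 5 and 10 kb. Beyond the flank it was 72.0% between 10 and 20 kb and 64.2% past 100 kb. The value within 1 kb was 17.1 points above that from 5 to 10 kb (7.72 to 27.0).

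At the equal threshold, the knockout number was 145% of wild type within 1 kb (131% to 161%), 128% between 1 and 2 kb, 118% between 2 and 5 kb and 113% between 5 and 10 kb. Past 20 kb it was between 100.3% and 101.8%. The percentage was thus highest next to genes under both thresholds, but at the equal threshold the libraries were furthest apart there and closest far from genes.

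**Figure D2:**
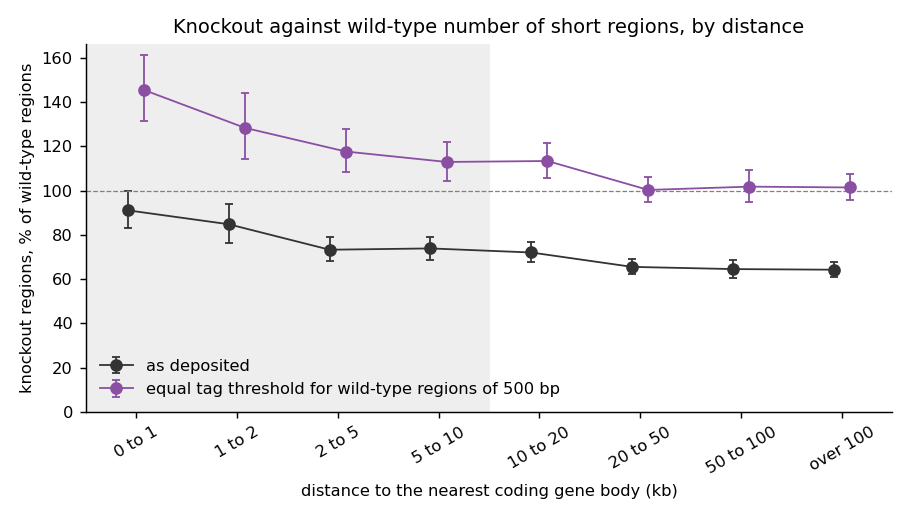
Number of knockout short regions as a percentage of wild-type ones (vertical axis, from 0) by distance to the nearest coding gene in kb, as deposited and at the equal tag threshold for wild-type regions of 500 bp, with 95% intervals for counting error and the flanking classes shaded. Both lines fall away from genes, from 91.1% to 64.2% as deposited and from 145% to 101% at the equal threshold.

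Upstream and downstream flanks were split for genes whose strand was known from the promoter table, which covered 4300 wild-type and 3364 knockout pairs of a region and its nearest gene. In the first 1 kb upstream there were 383 wild-type and 384 knockout regions (100.3%, 86.8% to 116%). In the first 1 kb downstream there were 433 and 343 (79.2%, 68.5% to 91.5%). The difference of 21.0 points had an interval of 3.15 to 39.5 points. It lost that bound above 0 when regions of exactly 500 bp were used (14.7 points, -7.60 to 37.7) and when at least 10 normalised tags were required (43.2 points, -0.35 to 90.5). At the equal threshold the percentages were 159% upstream (135% to 188%) and 125% downstream (106% to 147%), 34.2 points apart (2.12 to 67.5). The knockout number was then the higher one on both sides, so neither count alone gives a direction of change.

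A minority of flanking regions was called at the same place in both libraries. A base in a knockout region was found for 1286 wild-type flanking regions (23.9%, 22.8% to 25.05%), where the share for wild-type regions of all lengths was 29.8%. A base in a wild-type region was found for 1309 knockout flanking regions (31.0%, 29.6% to 32.4%), where the share for all knockout regions was 41%. Short regions in gene bodies had shares of 23.6% and 34.2%, and distant short regions 20.5% and 33.9%. For 937 flanking regions of each library the partner was itself a flanking region, and for 299 wild-type and 334 knockout ones it was a region of 1000 bp or more.

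The shared part was larger in each class of higher tag count. Under 8 normalised tags the shared part was 16.8% of 2413 wild-type and 18.5% of 936 knockout regions. From 8 to 10 tags it was 21.0% and 25.1%, and from 10 to 15 tags 35.4% and 44.7%. At 15 tags and over it was 63.5% in wild type, or 108 of 170, and 65.6% in the knockout, or 122 of 186. Of flanking regions with no base in the other list, 12.2% in wild type and 17.3% in the knockout had a region of the other library within 1 kb, and 41.9% and 52.6% within 5 kb.

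**Figure D3:**
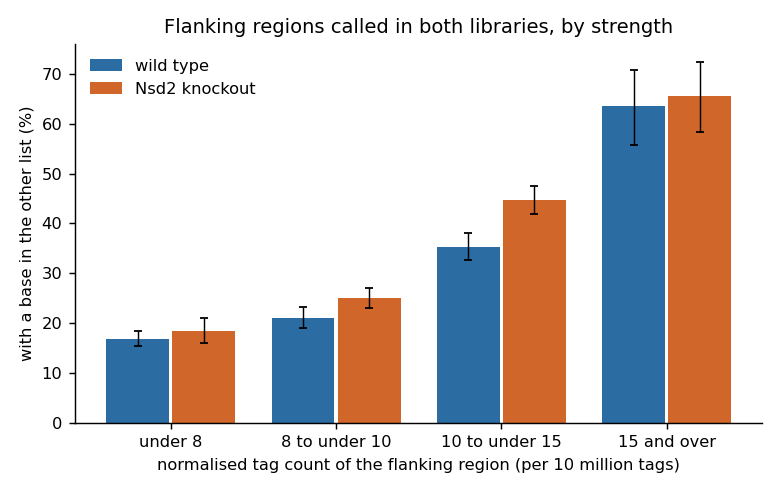
Percentage of flanking regions with at least 1 base in a region of the other library (vertical axis) by normalised tag count (horizontal axis, tags per 10000000), with exact 95% binomial intervals, for wild type and knockout. The bars climb from 16.8% and 18.5% in the weakest class to 63.5% and 65.6% in the strongest.

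Each of the 5 strongest flanking regions of a library had a base in a region of the other. The highest of all lay near 9230019H11Rik, at chr10:3109650-3110566 with 46.9 normalised tags in wild type and chr10:3109767-3110533 with 53.4 in the knockout. The region downstream of Kcnip1, which encodes a potassium channel partner, started at the same base of chromosome 11 in both libraries and had 25.1 and 28.7 normalised tags. The region upstream of Fut7, which encodes the fucosyltransferase that makes selectin ligands for leukocyte homing, had 24.5 and 28.4. Among the 5 strongest of each library were also those near Ppil4 (25.1) and Atp6v0d2 (23.6) in wild type and near Slc36a1 (25.4) and Misp3 (24.3) in the knockout.

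The surroundings of flanking regions were compared next. The median distance to the next region of the same library was 4.54 kb in wild type and 4.79 kb in the knockout. A region of at least 4 kb lay within 10 kb of 2.51% of wild-type flanking regions (2.11% to 2.96%) and 4.17% of knockout ones (3.58% to 4.81%). For short regions in gene bodies these values were 2.02% and 2.25%, and for distant ones 1.69% and 2.45%. A base in a long noncoding RNA gene was found for 14.2% of wild-type and 15.3% of knockout flanking regions. It was 5.86% and 5.82% for short regions in gene bodies and 23.0% and 22.2% for distant ones. Of the positions a region of 500 bp could take in the flanks, 10.6% would touch such a gene, and longer regions touch more by construction.

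The knockout percentage varied between chromosomes. Chromosome 13 had 201 in wild type and 119 in the knockout (59.2%, 46.8% to 74.6%), and chromosome 17 had 263 and 259 (98.5%, 82.6% to 117%). These were the lowest and the highest of the 20 percentages. On chromosome X, which holds Foxp3, there were 61 and 49.

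Each flanking region was then given to its nearest coding gene. At least 1 flanking region was found for 3940 genes in wild type and 3244 in the knockout, which are 18.2% and 15% of 21627 coding genes, and 1699 genes had one in both. Genes with a flanking region also had one in the gene body in 68.3% (wild type) and 65.0% (knockout) of cases, and genes without in 39.1% and 36.3%. The genes with a flanking region were also longer, with a median of 25.5 kb against 15.9 kb in wild type.

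By the rule of a difference of at least 2 flanking regions, 517 genes (2.39%) had fewer in the knockout and 258 (1.19%) had more. With the equal threshold the counts turned, to 211 with fewer and 346 with more.

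The lists of early response, T cell identity, homing, IL-2 and STAT, and Treg signature genes are called the T cell lists here. In them, 37.5% to 67.6% of genes had a flanking region, depending on the list and the library. The Gimap GTPase list, also of lymphocyte genes, was at 25% and 12.5% and is counted with the other lists. Of 34 genes of NF-kB, NFAT, AP-1 and early response signalling, 23 had one in wild type and 23 in the knockout, and the median gene had 1 in each. Of 27 genes of T cell identity and the receptor complex, 16 and 14 had one, of 22 chemokine receptor and homing genes 11 and 12, of 21 IL-2 and STAT genes 11 and 10, and of 24 Treg signature genes 11 and 9. The background was 18.2% and 15%, with a median of 0. At the equal threshold the wild-type background was 12.6%, and these lists had 19, 15, 9, 11 and 9 genes with a wild-type flanking region. Whether gene length or the size of the flank had a part in this was not tested.

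In the other lists the share ran from 0% to 50%, so the range overlapped that of the T cell lists. In wild type it was 50% for H3K36 enzymes and readers and 42.9% for B cell genes. For housekeeping genes and for NK and CD8 T cell genes it was 40%. Of 25 ribosomal protein genes 5 had a flanking region in each library, of 25 developmental regulators 7 and 6, and of 14 B cell genes 6 and 3. Of 20 housekeeping genes 8 had one in each, and of 20 H3K36 enzymes and readers 10 and 7. Of 14 myeloid genes 4 and 5 had one, of 10 NK and CD8 T cell genes 4 and 3, and of 8 Gimap GTPase genes 2 and 1. Of 16 neuronal and liver genes 0 and 2 had one, of 9 erythroid genes 0 and 2, and of 13 olfactory receptors 0 and 0. At the equal threshold the numbers were 3 and 5 for ribosomal proteins and 3 and 6 for developmental regulators. They were then 3 and 3 for B cell genes, 7 and 8 for housekeeping genes and 5 and 7 for H3K36 enzymes and readers. Myeloid genes had 2 and 5, and the remaining lists kept their numbers.

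**Figure D4:**
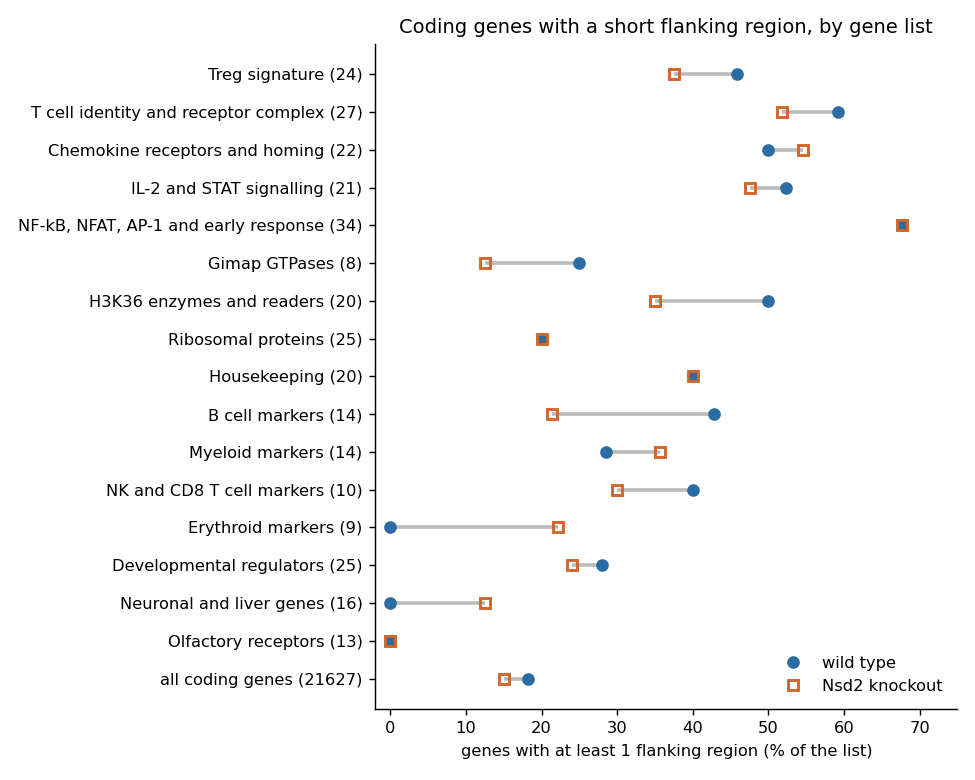
Percentage of the genes of each list (number of genes in brackets) with at least 1 flanking region, in wild type (filled circles) and knockout (open squares). The list of NF-kB, NFAT, AP-1 and early response genes is at 67.6% in both libraries, and all coding genes are at 18.2% and 15%.

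In the lists of T cells, genes with at least 2 fewer flanking regions in the knockout were 4 of the 27 T cell identity genes and 3 of the 24 Treg signature genes, with 0 having at least 2 more, where 2.39% and 1.19% of all coding genes had fewer and more. In the list of NF-kB, NFAT, AP-1 and early response genes 3 had fewer and 4 more, in the homing list 4 and 4, and in the IL-2 and STAT list 3 and 2. At the equal threshold, where over all genes more had a higher count than a lower one, the numbers with fewer and more were 2 and 0 for T cell identity, 1 and 0 for the Treg signature, 2 and 6 for early response, 3 and 5 for homing, and 1 and 2 for IL-2 and STAT. Only genes with at least 2 flanking regions in 1 library could be called, and their number is not given here. Genes with at least 1 flanking region in either library were 18 of the T cell identity genes and 13 of the Treg signature genes. Over all 21627 coding genes there were 5485 such genes. No test was made of these counts.

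Of the deleted gene and 4 other H3K36 methyltransferase genes, 3 had a flanking region in the wild-type list and 2 in the knockout list. Nsd2 had 1 in wild type, with 9.03 normalised tags at 2870 bp from the gene, and 2 in the knockout, with 15.2 tags at 3901 bp and 8.45 tags at 775 bp, none of them shared. Such regions carry no information on the deletion of Nsd2 itself. Nsd1 had 1 in both, with 6.12 tags at 7 bp in wild type and 12.8 tags at 2424 bp in the knockout, and the wild-type one falls away at the equal threshold. Setd2 had 1 in wild type, 33 bp upstream with 9.33 tags, and Nsd3 and Ash1l had 0 in either.

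Readers and erasers of the same list were mixed. Dnmt3a, a DNA methyltransferase that binds methylated H3K36, had 2 flanking regions in each library and no shared base, and 0 against 2 at the equal threshold. Kdm2b, a demethylase of this residue, had 3 upstream in wild type, with 10.2, 7.87 and 7.58 tags, and 1 in the knockout with 8.11 tags. All 3 wild-type places had a base in a knockout region, so the lower count at Kdm2b did not go with lost places.

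Among Treg genes, Foxp3, which encodes the lineage's defining transcription factor, had 0 wild-type flanking regions and 1 knockout one, at chrX:7576895-7577395 with 8.79 tags, 2280 bp upstream. All 500 bp of it lay inside a wild-type region that was not itself short and flanking. Il2ra, the receptor chain that gives high affinity for IL-2, had 3 in wild type, with 10.5 and 6.99 tags upstream and 6.70 tags downstream, and 1 in the knockout, 215 bp downstream with 7.78 tags. None of these 4 was shared, and at the equal threshold the count was 1 against 1. The length covered by all regions in the Il2ra body and its flanks was 12721 bp for wild type and 14671 bp for the knockout.

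Ikzf2, which encodes Helios, had 2 flanking regions in wild type, with 6.99 and 12.2 tags, and 1 in the knockout with 15.6 tags. The latter overlapped the stronger wild-type region by 62 bp, and the weaker one falls away at the equal threshold. Nrp1, a surface receptor of thymus-derived Treg cells, had 1 downstream in wild type with 14.0 tags and 2 upstream in the knockout with 9.13 tags each, none shared. Ctla4, an inhibitory receptor, had 0 in either library.

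Homing genes had flanking regions at several places in each library. Cxcr4, the receptor that retains cells in bone marrow, had 3 in each, and 1 pair, about 9 kb downstream, overlapped by 454 bp, with 7.87 tags in wild type and 8.79 in the knockout. Ccr7, the receptor for entry into lymph nodes, had 3 in wild type, with 14.9, 10.8 and 7.29 tags, and 5 in the knockout, with 16.6, 12.2, 11.8, 8.79 and 8.45 tags. Klf2, a factor that drives homing receptor genes, had 2 and 3.

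Among T cell genes, Cd2 and Thy1 had fewer in the knockout. Cd2, an adhesion receptor, had 5 in wild type and 3 in the knockout, and each of the 3 knockout regions had a base in a wild-type region. Thy1, a surface glycoprotein of T cells, had 3 and 1, and its strongest wild-type region, of 18.1 tags, lay whole inside a knockout region. The length covered in the body and flanks was 21757 bp (wild type) and 19897 bp (knockout) at Cd2. At Thy1 it was 5530 bp and 6166 bp, so the lower count there did not go with less cover. Skap1, an adaptor of the T cell receptor pathway, had 2 in each, with 1 pair sharing 673 bp.

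Signalling genes differed in the direction of their counts. Irf1, an interferon-response factor, had 4 in wild type and 5 in the knockout, and the upstream pair shared 747 bp with 16.6 and 13.9 tags. Btg1, an antiproliferative factor of resting lymphocytes, had 6 and 3. Pim1, a kinase gene induced by STAT5, had 2 and 4, and Socs3, a feedback inhibitor of cytokine receptors, had 1 and 3. Socs2 had 2 in each, none shared, or 1 and 2 at the equal threshold. The length covered in the body and flanks was 11207 bp (wild type) and 10139 bp (knockout) at Irf1. It was 11250 bp and 14676 bp at Btg1, 11029 bp and 9277 bp at Pim1, and 2450 bp and 6365 bp at Socs3. Covered length thus went against the count at Irf1, Btg1 and Pim1 and with it at Socs3.

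Genes with the most flanking regions over both libraries were of several kinds. Tkt, which encodes transketolase of the pentose phosphate pathway, had 5 in each library, with 2 overlapping pairs. Cd82, a tetraspanin, had 5 in each, with 3 overlapping pairs upstream. Tnfrsf8, which encodes CD30, had 4 and 5, and Fam207a 3 and 6. Dusp7, a phosphatase of MAP kinases, had 6 and 3, or 3 and 3 at the equal threshold, and Lrrc8b, a subunit of volume-regulated anion channels, had 5 and 3.

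**Figure D5:**
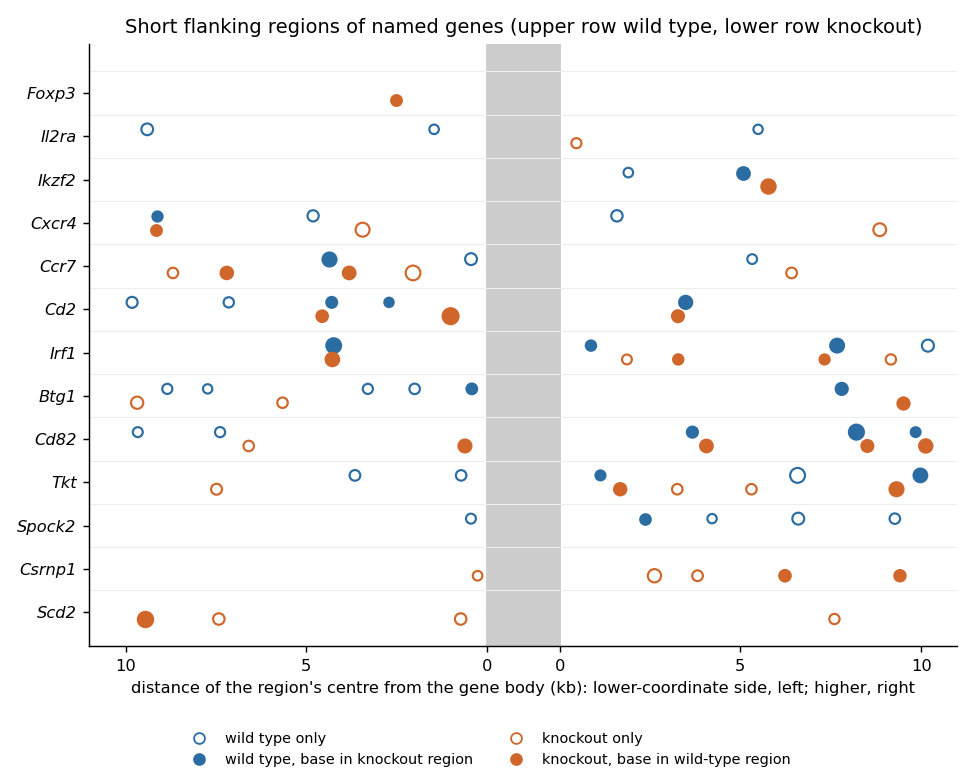
Flanking regions of 13 named genes, placed by the distance of the region's centre from the gene body in kb on the lower-coordinate side (left) and the higher-coordinate side (right) of the gene (grey, not to scale), with wild type above and knockout below in each row. The area of a circle follows the normalised tag count, and filled circles have a base in a region of the other library. Cd82 has 5 circles in each library, while Spock2 has 5 wild-type circles and 0 knockout ones.

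The genes with the largest falls in number were chosen by that number, so their values are a description. At the equal threshold the wild-type counts of the 4 genes below, in order, were 4, 5, 5 and 3. Spock2, which encodes an extracellular proteoglycan, had 5 in wild type, with 10.8 tags at most, and 0 in the knockout, and 1 of the 5 had a base in a knockout region. Prkcd, which encodes protein kinase C delta, had 6 and 1, and the length covered in its body and flanks was 11784 bp and 3941 bp. Kremen1, a Dickkopf receptor, had 6 and 1, with 8961 bp and 4073 bp covered. Gpam, an acyltransferase of triglyceride synthesis, had 4 and 0, with 3221 bp and 500 bp covered.

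The genes with the largest gains were chosen in the same way. Csrnp1 had 0 in wild type and 5 in the knockout, and 2 of the 5 had a base in a wild-type region, and the length covered in its body and flanks was 8994 bp and 13130 bp. Scd2, a stearoyl-CoA desaturase, had 0 and 4, with 1586 bp and 4095 bp covered, and Nup153, a nuclear pore protein, 0 and 4, with 777 bp and 2978 bp. Foxn3, a forkhead factor, had 0 and 4, all upstream, and the length covered in its body and flanks was 29070 bp and 25317 bp. Ankrd11, a chromatin regulator, had 1 and 5, with 24485 bp and 24396 bp covered. The covered length was thus larger in the knockout at Csrnp1, Scd2 and Nup153 and not at Foxn3 and Ankrd11.

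Genes outside the T cell lists had flanking regions too. Eef1a1, a translation elongation factor, had 1 in wild type and 3 in the knockout, and Ywhaz, a 14-3-3 protein, 4 and 2, or 2 and 2 at the equal threshold. Fcgr3, an Fc receptor gene of myeloid cells, had 1 in each, and the pair shared 625 bp with 16 and 13.9 tags. Cd8b1 had 2 in wild type and 1 in the knockout, none shared. Pax2, a developmental regulator, had a downstream pair that shared 804 bp, with 19.5 and 17.6 tags.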

How the data were processed

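H3K36me2 regions of 2 libraries, 1 a genotype, were analysed as deposited. The build (mm10) and the tools Bowtie2, deepTools, HOMER, Picard and Trim Galore are from the submitters' processing notes, which give no versions. Per the file headers, HOMER called 500 bp peaks on each library alone, with no control in the command, and stitched them into regions. The sources used here do not give input or spike-in. The signal value of a region is the authors' deposited tag count scaled to 10000000 tags per library, which removes any genome-wide change in the mark. The deposited score behaves, by its values, as the tags of 1 peak. A deposited clonal fold ratio stayed unused. Tags carry no molecular identifiers.

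Lengths were end minus start. Gene positions, promoter windows and microRNAs came from RefSeq tables of GRCm38.p6, which give strand for part of the genes. Each region went to its nearest coding gene, ties to both. Shares have exact Clopper-Pearson, densities exact Poisson and single ratios conditional binomial 95% intervals, and differences of percentages have Wald intervals on the log scale combined by the MOVER method. The code (Python 3.11.15 with scipy 1.17.1, numpy 2.4.6, pandas 2.3.3 and matplotlib 3.10.9) was tested on simulated data. At the equal threshold, wild-type regions of 500 bp needed a score of at least 13.9 and longer ones were kept.

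Members and the 16 lists, with 303 genes, were chosen with earlier results of these data known. The rule for named genes took the H3K36 methyltransferase genes (Ash1l, Nsd1, Nsd2, Nsd3, Setd2), Cxcr4 and the Treg genes Ctla4, Foxp3, Ikzf2 and Il2ra, the 10 genes with the most flanking regions, the 5 largest falls and 5 largest rises, the 3 genes per list with the most, the genes nearest to the 5 strongest regions per library, and the 4 promoter windows with the most tags in both. A few of these genes are not reported here by name but remain counted. Other settings tried were tag, score, length and distance limits, overlap rules, all RefSeq genes and autosomes alone.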

Additional observations from a re-analysis of the deposited data

How the results depend on the processing

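Over the settings run, the excess of flanking over distant short regions, the excess within 1 kb and the density ratios kept their direction, and autosomes alone moved no value. The knockout percentage of wild-type flanking regions reversed at the equal threshold (122.68%) and for scores at or above the members' median (108.82%, where ties at the median set how many regions each list keeps), and was 95.6% with at least 10 normalised tags and 74.5% with all RefSeq genes. At the equal threshold the shared part was 28.9% of wild-type and 25.7% of knockout regions, the excess over distant regions 19.03 points and over gene bodies 8.69 points, the excess within 1 kb 32.6 points and the genes with fewer 211. With at least 10 tags the wild-type shared part was 25.9%, the wild-type density ratio 1.47, the excess within 1 kb 34.3 points and the upstream excess 43.2 points, with 93 genes having fewer and 86 more. For scores at or above the median the shared parts were 29.8% and 34.3%, the excess over distant regions 19.9 points and over gene bodies 8.63 points, and 175 genes had fewer against 220 with more. At exactly 500 bp the shared parts were 18.2% and 22.9% and 290 genes had fewer, and under 2000 bp the shared parts were 28.5% and 35.8%. Within 5 kb 270 genes had fewer and 151 more, and within 20 kb 844 had fewer. With all RefSeq genes the knockout shared part was 32.6%. The shared parts were 19.6% and 25.4% when 50% of a region had to overlap, and 33.2% and 42.9% when a region within 1 kb counted. Some settings for single results, such as the equal threshold for the shared parts, were added after seeing the data. The causes were not tested, beyond the fewer or further regions that length, distance and tag limits admit by construction.

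No paired analysis was possible because each genotype had 1 library and the replicate number is only a name. No library was left out, as none would remain to compare.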
